A study of Mus musculus with 12 samples.

Results

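Genes of the liver X receptor (LXR) and sterol export pathway, 8 in all, were described in mouse liver. These 8 genes are the receptors Nr1h3 (LXRα) and Nr1h2 (LXRβ), the cholesterol exporters Abcg5, Abcg8 and Abcg1, the ubiquitin ligase gene Mylip, and the lysosomal cholesterol transporters Npc1 and Npc2. They were chosen by name for their known roles, and with earlier results of these data known. The deposited table lists 23284 genes, of which 11546 were tested. Counts of these 8 genes set beside shares of all genes are therefore descriptions only. All 8 passed the filter on low values, which asked for 1 FPKM or more in 2 or more libraries.

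RNA was sequenced from 12 livers of mice labelled Apoa1-/- Apoe-/-. DKO/hA1 mice carried the human APOA1 gene in addition, and DKO mice did not. Mice of each genotype had eaten a high-fat Western diet or standard chow for 22 weeks, and samples are given as 3 DKO/hA1 Western diet, 2 DKO/hA1 chow, 3 DKO Western diet and 4 DKO chow libraries. All 4 groups are therefore deficient in mouse apolipoprotein A-I, on which high-density lipoprotein is built, and in apolipoprotein E, which carries lipoprotein remnants to the liver and is itself an LXR target. Age, sex and the promoter that drives the human gene are not given in the sources used here. The labels carry animal codes whose meaning they do not state. Both DKO/hA1 chow livers share the first number of their code with each other and with DKO chow replicate 3, and replicates 1 of DKO/hA1 and DKO on Western diet share another. The estimated correlation within a code was 0.552, so these livers may not be independent, and the p-values measure only the spread between these samples. With the code as a random block none of the 8 genes was called in any comparison.

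LXRα and LXRβ are nuclear receptors that bind DNA as partners of RXR and are activated by oxysterols and by desmosterol, which build up when a cell holds excess cholesterol. In liver, LXR target genes send cholesterol into bile through the ABCG5/ABCG8 transporter, raise fatty acid synthesis and limit lipoprotein uptake through MYLIP, also called IDOL, a ubiquitin ligase that marks lipoprotein receptors for degradation. ABCG1 moves cholesterol out of macrophages and other cells towards high-density lipoprotein. NPC2 binds cholesterol in the lysosome and hands it to NPC1, which takes it through the lysosomal membrane.

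Stretches of DNA next to start sites of these genes are shown because the values below involve a gene pair that shares its upstream sequence (Abcg5 and Abcg8), a receptor gene whose groups overlapped in every pairwise comparison (Nr1h2) and the ligase gene (Mylip). Abcg5 and Abcg8 lie head to head on chromosome 17, and their annotated start sites, at 84683011 and 84683121, are 110 bases apart. The whole sequence between them is 109 bases, given on the Abcg8 strand at chr17:84683012-84683120, with each match to GATAA on either strand in capitals. The Nr1h2 stretch is the 120 bases upstream of its start on the minus strand, chr7:44553966-44554085, with each match to ACTTCCGG, a sequence bound by ETS factors, in capitals on either strand. The Mylip stretch is the 120 bases upstream of its start on the plus strand, chr13:45389622-45389741, with TATAAA in capitals. All are RefSeq sequences of build GRCm38.p6.
Abcg5-Abcg8 interval: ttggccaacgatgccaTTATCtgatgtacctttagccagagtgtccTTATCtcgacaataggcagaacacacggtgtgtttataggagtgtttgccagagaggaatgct
Nr1h2 upstream: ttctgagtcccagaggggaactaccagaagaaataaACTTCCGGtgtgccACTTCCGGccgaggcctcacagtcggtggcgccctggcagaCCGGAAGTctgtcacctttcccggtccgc
Mylip upstream: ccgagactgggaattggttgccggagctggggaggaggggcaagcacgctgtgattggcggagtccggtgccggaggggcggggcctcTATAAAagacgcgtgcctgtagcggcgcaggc

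Promoter sequence was matched for 6 of the 8 genes, with 8 start sites in all, and the 250 bases upstream of each start were searched on both strands. GATAA was found in 22.6% of the 32851 mouse promoter windows searched in the same way, ACTTCCGG in 2.88% and TATAAA in 12.4%. The sequence between the Abcg5 and Abcg8 starts holds 2 matches to GATAA, and the Nr1h2 stretch holds 3 matches to ACTTCCGG. LXR and RXR together bind direct repeats spaced by a few bases. The perfect repeat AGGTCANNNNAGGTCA was found in 5 windows of all those searched (0.0152%) and in none of the 8 windows of these genes. Its repeated part, AGGTCA, was found in 14% of all windows and in none of these 8, which says only that these letters are not in these windows.

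Library totals ran from 379689 to 578927 FPKM, and between 10298 and 11005 genes were at 1 FPKM or more in a library. Apoa1 reads, which can come from remaining knockout transcript or from the human gene, gave 122 to 239.8 FPKM in the 5 livers with the human gene, against 30.4 to 77.4 FPKM in the 7 without it. Apoe was listed at 12.9 to 53.2 FPKM in livers with the human gene and at 25.7 to 89.8 FPKM in those without it. Summed FPKM of 12 hepatocyte markers was 24754 to 35699 over the 12 libraries, and none of these markers was called in either diet comparison. Summed FPKM of neutrophil markers (7 of 8 listed were in the table) was 832 in DKO/hA1 Western diet replicate 3 and 901 in DKO Western diet replicate 2. It was 17.7 to 217 in the other Western diet livers and 12.6 to 29.5 in the chow livers, where up to 2 of the 7 were at 0. Values below are deposited FPKM, with group means ± SD and the numbers of livers given above. Log2 fold changes ± SE are on the scale of scaled FPKM plus 1, which understates changes of genes with low values. They come from limma with Benjamini-Hochberg adjustment over all genes tested, and a gene was called at an adjusted p below 0.05.

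The LXR receptor genes had diet differences of at most 0.33 on the log2 scale in either genotype, and neither passed the test in any comparison. Nr1h3 (chromosome 2, 91184061 to 91202834, minus strand, GRCm38) was the more abundant of the pair, with a mean of 54.0 FPKM over the 12 livers, against 16.8 FPKM for Nr1h2 (chromosome 7, 44549616 to 44553951, minus strand). Nr1h3 was thus higher than 90.9% of the genes tested by mean FPKM, and Nr1h2 higher than 75.3%. Their transcripts share no identical run longer than 17 bases (atgaagctggtgagcct), so reads of ordinary length can be told apart between them.

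Nr1h3 was at 67.8, 53.3 and 59.2 FPKM in DKO/hA1 livers on Western diet, against 47.1 and 46.2 FPKM in DKO/hA1 livers on chow. All 3 Western diet livers were above both chow livers, with a log2 fold change of 0.33 ± 0.16 (95% interval -0.01 to 0.67, limma adjusted p = 0.384). In DKO livers the values were 56.1, 53.4 and 65.7 FPKM on Western diet, against 47.2, 40.5, 54.8 and 56.2 FPKM on chow. These groups overlapped, and the log2 fold change was 0.16 ± 0.13 (95% interval -0.12 to 0.45, limma adjusted p = 0.667). Averaged over genotypes the diet difference was 0.25 ± 0.10 (95% interval 0.02 to 0.47, limma adjusted p = 0.203).

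Nr1h2 was at 17.2, 14.3 and 15.9 FPKM in DKO/hA1 livers on Western diet, against 16.8 and 15.3 FPKM in DKO/hA1 livers on chow. The groups overlapped, with a log2 fold change of -0.04 ± 0.16 (95% interval -0.39 to 0.31, limma adjusted p = 0.944). In DKO livers Nr1h2 was at 19.3, 16.4 and 22.5 FPKM on Western diet, against 16.6, 12.3, 17.0 and 18.3 FPKM on chow. These too overlapped, with a log2 fold change of 0.19 ± 0.13 (95% interval -0.10 to 0.48, limma adjusted p = 0.613).

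The ratio of Nr1h3 to Nr1h2 within a liver was 3.73 to 3.94 in the 3 DKO/hA1 Western diet livers and 2.81 to 3.29 in the other 9 livers. The ratio was noticed in these data and is a description with no test. The receptor levels varied together between livers: over 12 libraries the Pearson r of log2 values was 0.620, and 0.896 after group means were removed.

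**Figure D1:**
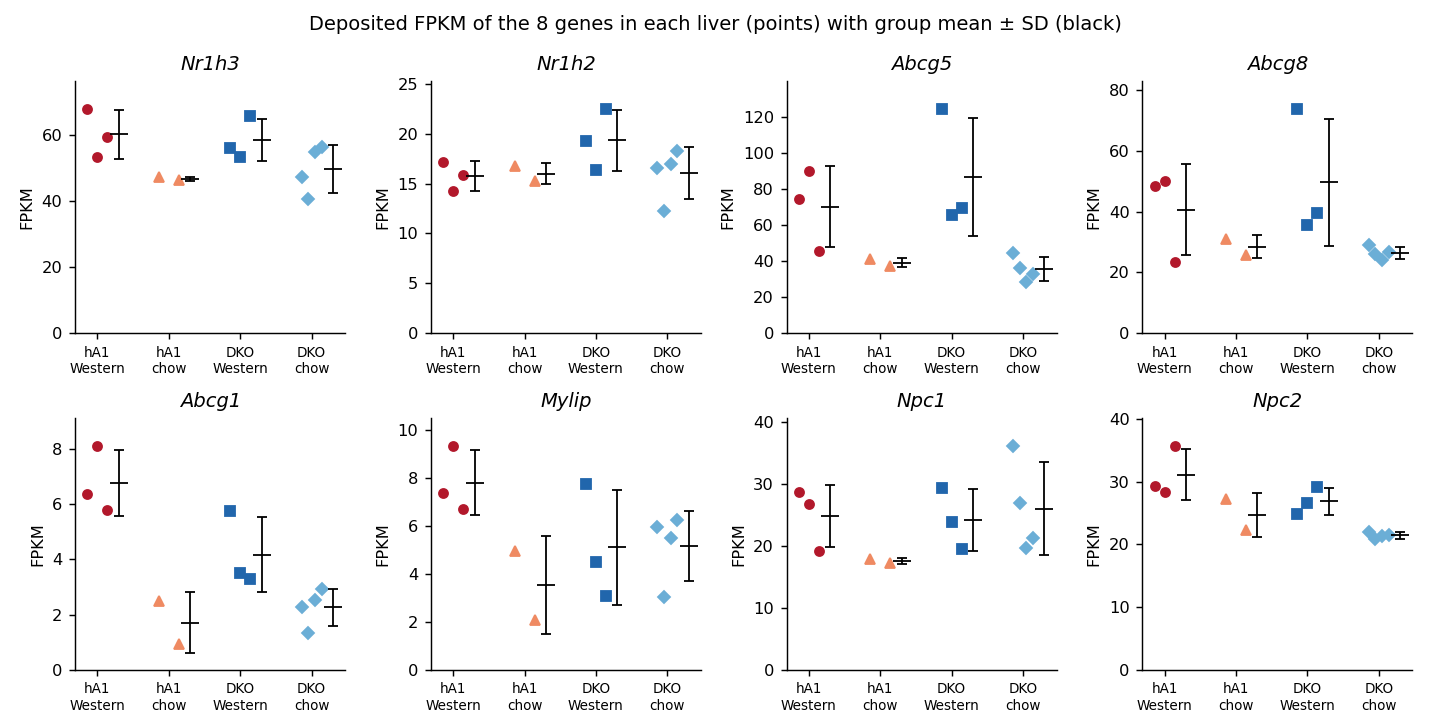
Deposited FPKM (y axis, separate scale per gene, from 0) of the 8 genes in each liver, by group (x axis: DKO/hA1 Western diet, DKO/hA1 chow, DKO Western diet, DKO chow), with points for livers and black bars for mean ± SD. Abcg1 and Abcg5 are the genes for which all 6 Western diet livers lie above all 6 chow livers, while Nr1h2 spans 12.3 to 22.5 FPKM with overlapping groups.

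The paired exporter genes Abcg5 and Abcg8 encode partner subunits of the transporter that secretes cholesterol and plant sterols from hepatocytes into bile. Abcg5 was higher on Western diet when averaged over both genotypes, by 0.95 ± 0.20 on the log2 scale (95% interval 0.51 to 1.40, limma adjusted p = 0.0266), with all 6 Western diet livers above all 6 chow livers. Abcg8 differed in the same direction, by 0.58 ± 0.22 (95% interval 0.11 to 1.06), but did not pass the test (limma adjusted p = 0.163). In this averaged diet comparison 2 of the 8 genes were called higher, Abcg5 and Abcg1, against 2.8% of all genes tested. The median of the 8 log2 fold changes was 0.36, against -0.01 over all genes tested.

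Abcg5 (chromosome 17, 84658234 to 84683011, minus strand) was at 74.6, 90.2 and 45.8 FPKM in DKO/hA1 livers on Western diet, against 41.0 and 37.3 FPKM in DKO/hA1 livers on chow. All 3 Western diet livers lay above the chow livers, the third only narrowly, and the log2 fold change was 0.75 ± 0.31 (95% interval 0.07 to 1.44, limma adjusted p = 0.308). It was 0.47 with the animal code as a block and 0.38 with the clock index, described below, as covariate. In DKO livers Abcg5 was at 124, 65.5 and 69.6 FPKM on Western diet, against 44.3, 36.4, 28.3 and 32.9 FPKM on chow. Every DKO Western diet liver exceeded every DKO chow liver, with a log2 fold change of 1.15 ± 0.26 (95% interval 0.58 to 1.72). This did not pass the test across all genes either (limma adjusted p = 0.147), although leaving out DKO/hA1 Western diet replicate 3, which enters through the shared spread, gave an adjusted p of 0.0466. By group mean the order was DKO Western diet (86.5 ± 32.9 FPKM), DKO/hA1 Western diet (70.2 ± 22.5), DKO/hA1 chow (39.2 ± 2.59) and DKO chow (35.5 ± 6.76). Neighbours on the same diet did not differ beyond their spread.

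Abcg8 (chromosome 17, 84676302 to 84700333, plus strand) was at 48.6, 50.0 and 23.4 FPKM in DKO/hA1 livers on Western diet, against 31.1 and 25.7 FPKM in DKO/hA1 livers on chow. The third Western diet liver, DKO/hA1 replicate 3, was below both chow livers, and the log2 fold change was 0.41 ± 0.33 (95% interval -0.31 to 1.14, limma adjusted p = 0.658). Over the other settings it ran from 0.13 to 0.76. That liver had the high neutrophil marker sum given above, and the part of this in its Abcg8 value was not tested. In DKO livers Abcg8 was at 73.8, 35.6 and 39.6 FPKM on Western diet, against 28.9, 25.9, 23.9 and 26.6 FPKM on chow. These groups did not overlap, with a log2 fold change of 0.75 ± 0.28 (95% interval 0.14 to 1.36, limma adjusted p = 0.337), or 0.44 without DKO Western diet replicate 1. Without DKO/hA1 Western diet replicate 3, Abcg8 passed the test in the averaged diet comparison, with a log2 fold change of 0.75 (limma adjusted p = 0.036). Without both livers highest in neutrophil markers the value was 0.85 (limma adjusted p = 0.0299).

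Abcg5 and Abcg8 followed each other from liver to liver. Across the 12 libraries the Pearson r of their log2 values was 0.940, and 0.941 with group means removed, and Abcg8 was the gene with the pattern most like that of Abcg5 among all genes tested. Next after it came Glb1 (r = 0.906), Acot11 (0.854), Adam11 (0.837) and BC013529 (0.832). Points in these correlations share a library, and with it depth and scaling. The ratio of Abcg5 to Abcg8 FPKM was 1.54 to 1.96 in the 6 Western diet livers and 1.18 to 1.53 in the 6 chow livers, so the ranges only just failed to overlap. Abcg5 and Abcg8 exons share 82 bases on opposite strands (3.02% of the Abcg5 and 2.19% of the Abcg8 exonic bases). Whether reads were counted by strand is not given in the sources used here, so reads in those bases cannot be assigned to either gene with certainty.

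**Figure D2:**
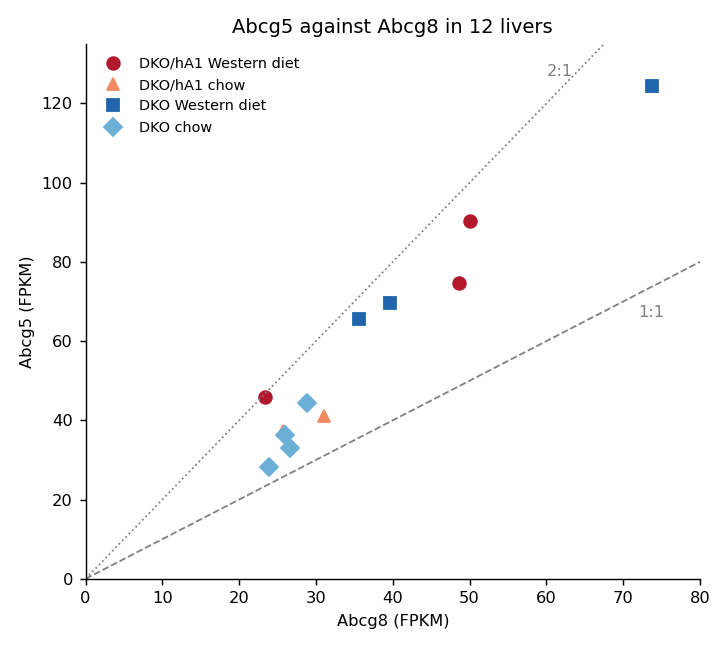
Abcg5 against Abcg8 in FPKM (both axes linear, from 0) in the 12 livers, with marker shape and colour for the group and grey lines for ratios of 1:1 and 2:1. The Western diet livers reach 124 FPKM of Abcg5 and 73.8 FPKM of Abcg8, and their Abcg5 to Abcg8 ratios, 1.54 to 1.96, lie above the chow ratios of 1.18 to 1.53.

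Limits of the Abcg5 call lie in single livers and in scaling. The averaged diet call held in 15 of 22 other settings, with adjusted p from 0.0133 to 0.14 (log2 fold change 0.75 to 1.17). It was lost with libraries scaled to equal totals, with the animal code as a block, with a clock index as covariate, and on leaving out DKO/hA1 Western diet replicate 2 (limma adjusted p = 0.0539), DKO/hA1 chow replicate 1 (0.0758), DKO/hA1 chow replicate 2 (0.14) or DKO chow replicate 3 (0.055).

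Abcg1, the exporter of macrophages and other cells, showed the clearest diet difference of the 8 genes. It was called in DKO/hA1 livers, where it was higher on Western diet by 1.56 ± 0.28 on the log2 scale (95% interval 0.95 to 2.16, limma adjusted p = 0.0267), and in the average over genotypes, by 1.08 ± 0.18 (95% interval 0.69 to 1.48, limma adjusted p = 0.00906). In DKO/hA1 livers it was the only gene of the 8 called for diet, against 1.08% of all genes tested called higher. In DKO livers none of the 8 was called, against 0.113% of all genes (13 genes), and 3 of the 8 (Abcg1, Abcg5 and Abcg8) were higher at an unadjusted p below 0.05, against 7.1% of all genes.

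Abcg1 (chromosome 17, 31057675 to 31117988, plus strand) had the lowest level of the 8, with a mean of 3.78 FPKM over 12 livers, above 35.3% of the genes tested. It was at 6.38, 8.13 and 5.81 FPKM in DKO/hA1 livers on Western diet, against 2.49 and 0.932 FPKM in DKO/hA1 livers on chow. All 3 Western diet livers stood well above both chow livers, and the chow livers differed from each other by more than the Western diet livers did in proportion. In DKO livers Abcg1 was at 5.74, 3.51 and 3.28 FPKM on Western diet, against 2.27, 1.33, 2.54 and 2.92 FPKM on chow. These groups did not overlap, with a log2 fold change of 0.61 ± 0.23 (95% interval 0.10 to 1.12, limma adjusted p = 0.348). By group mean the order was DKO/hA1 Western diet (6.77 ± 1.21 FPKM), DKO Western diet (4.18 ± 1.36), DKO chow (2.26 ± 0.678) and DKO/hA1 chow (1.71 ± 1.10). The chow groups did not differ beyond their spread.

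The diet difference of Abcg1 was larger in DKO/hA1 than in DKO livers by 0.94 ± 0.36 on the log2 scale (95% interval 0.15 to 1.74). The interaction did not pass the test across all genes (limma adjusted p = 0.96, unadjusted p = 0.0239). It was 0.53 without DKO/hA1 chow replicate 2 and 1.36 without DKO/hA1 chow replicate 1. None of the 8 genes was called for the interaction, in which 0.0173% of all genes were called. At an unadjusted p below 0.05, 2 of the 8 (Abcg1 and Mylip) had a positive interaction, against 2.44% of all genes.

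Most markers of macrophages moved with Abcg1. Summed FPKM of 16 macrophage and Kupffer cell markers was 1086 to 1876 in DKO/hA1 livers on Western diet, against 212 to 482 in DKO/hA1 livers on chow. In DKO livers the sum was 784 to 993 on Western diet, against 260 to 594 on chow. None of the 16 markers was at 0 in any library. In DKO/hA1 livers 8 of the 16 were called higher on Western diet, against 1.08% of all genes tested. The median log2 fold change of the 16 there was 1.79. In DKO livers 0 of the 16 were called by limma, with a median of 0.83. At an unadjusted p below 0.05, 8 were higher in DKO livers, against 7.1% of all genes, and 1 was lower. That marker was Cd163, at 1.08 ± 0.627 FPKM on Western diet against 2.76 ± 1.38 on chow in DKO livers. DKO/hA1 Western diet replicate 3 had the highest marker sum, 1876 FPKM, and the lowest Abcg1 of its group. The genes most like Abcg1 across the 12 libraries were Lgals3 (r = 0.982), Gp49a (0.977), Cd84 (0.977), Ly9 (0.974) and Cd36 (0.974). Lgals3, Gp49a, Cd84 and Ly9 are immune cell genes, and Cd36 is a fatty acid and lipoprotein receptor of macrophages and hepatocytes. In bulk liver a change in the number of cells of a type and a change in RNA per cell cannot be told apart, and the part of macrophage number in the Abcg1 difference was not tested.

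**Figure D3:**
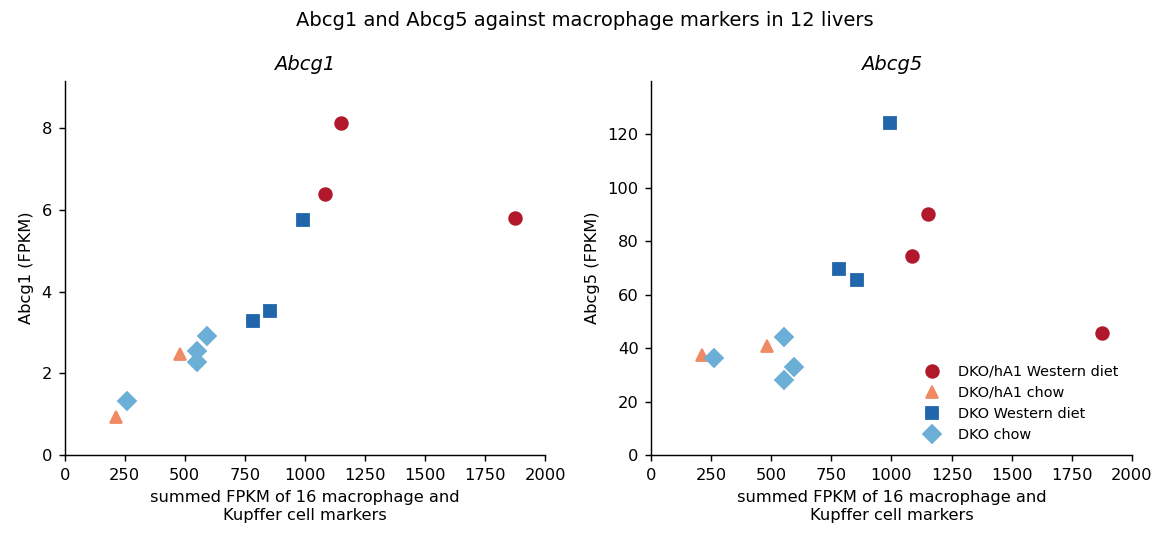
FPKM of Abcg1 (left) and Abcg5 (right) on the y axes against the summed FPKM of 16 macrophage and Kupffer cell markers on the x axis, in 12 livers, all axes linear from 0. Abcg1 is highest in the DKO/hA1 Western diet livers, where the marker sum is 1086 to 1876, while Abcg5 is highest, at 124 FPKM, in a DKO Western diet liver.

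The Abcg1 call in DKO/hA1 livers rested on few livers. It held in 16 of 23 other settings, with adjusted p from 0.0176 to 0.423. Without DKO/hA1 chow replicate 2, which had the lowest Abcg1 and the lowest macrophage marker sum, the log2 fold change was 1.14 (limma adjusted p = 0.423), and without DKO/hA1 Western diet replicate 2 it was 1.44 (limma adjusted p = 0.0742). The averaged diet call of Abcg1 held in 20 of 22 settings and was lost without DKO/hA1 chow replicate 2 (log2 fold change 0.88, limma adjusted p = 0.0715) and with the animal code as a block (1.10, limma adjusted p = 0.0742).

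Mylip (chromosome 13, 45389742 to 45412022, plus strand) was not called in any comparison. It was at 7.38, 9.34 and 6.70 FPKM in DKO/hA1 livers on Western diet, against 4.97 and 2.09 FPKM in DKO/hA1 livers on chow. The groups did not overlap, with a log2 fold change of 1.01 ± 0.35 (95% interval 0.25 to 1.77, limma adjusted p = 0.198). It was 0.54 without DKO/hA1 chow replicate 2 and 1.47 without DKO/hA1 chow replicate 1. In DKO livers Mylip was at 7.74, 4.50 and 3.05 FPKM on Western diet, against 5.93, 3.03, 5.48 and 6.23 FPKM on chow. Here the groups overlapped widely, and the log2 fold change was -0.11 ± 0.29 (95% interval -0.75 to 0.52, limma adjusted p = 0.915). The difference between these diet effects was 1.12 ± 0.45 (95% interval 0.13 to 2.11, limma adjusted p = 0.96, unadjusted p = 0.03), and 0.65 without DKO/hA1 chow replicate 2.

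Mylip varied together with Abcg1 between livers of the same group. Their Pearson r over 12 libraries was 0.828, and 0.958 with group means removed. DKO/hA1 chow replicate 2 and DKO chow replicate 2 had the lowest Mylip and Abcg1 of their groups. They also had the lowest sums of macrophage markers (212 and 260 FPKM) and of 7 endothelial markers (37.6 and 42.2 FPKM) of their groups. DKO chow replicate 2 also had the lowest estimated relative depth of the 12 libraries, 0.525, described under processing below. The part of cell makeup and of depth in the values of these livers was not tested.

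The lysosomal pair, Npc2 and Npc1, was not called in any comparison. Npc2 (chromosome 12, 84754562 to 84773152, minus strand) was at 29.4, 28.3 and 35.7 FPKM in DKO/hA1 livers on Western diet, against 27.2 and 22.2 FPKM in DKO/hA1 livers on chow. All Western diet livers were above the chow livers, by a log2 fold change of 0.30 ± 0.13 (95% interval 0.01 to 0.59, limma adjusted p = 0.348), or 0.17 without DKO/hA1 chow replicate 2. In DKO livers Npc2 was at 24.8, 26.6 and 29.2 FPKM on Western diet, against 22.1, 20.8, 21.3 and 21.6 FPKM on chow. The DKO groups did not overlap either, with a log2 fold change of 0.24 ± 0.11 (limma adjusted p = 0.43), or 0.0274 with libraries scaled to equal totals. Averaged over genotypes Npc2 differed by 0.27 ± 0.09 (95% interval 0.08 to 0.46, limma adjusted p = 0.108). The genes most like Npc2 across the 12 libraries were Sh3bp1 (r = 0.935), Pld2 (0.935), Asah1 (0.926), LOC100038947 (0.922) and Arpc1b (0.921). Asah1 encodes acid ceramidase, a lysosomal enzyme of lipid breakdown.

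Npc1 (chromosome 18, 12189692 to 12236400, minus strand) was at 28.6, 26.7 and 19.1 FPKM in DKO/hA1 livers on Western diet, against 17.9 and 17.3 FPKM in DKO/hA1 livers on chow. The groups did not overlap, with a log2 fold change of 0.44 ± 0.26 (95% interval -0.12 to 0.99, limma adjusted p = 0.509). It was 0.19 with the animal code as a block and 0.0082 with the clock index as covariate. In DKO livers Npc1 was at 29.4, 23.8 and 19.4 FPKM on Western diet, against 36.1, 26.9, 19.6 and 21.3 FPKM on chow. These groups overlapped, and the log2 fold change was -0.15 ± 0.21 (95% interval -0.62 to 0.32, limma adjusted p = 0.834). Npc1 followed Abcg5 within groups (r = 0.824) more than over all 12 libraries (r = 0.385). The pairs named so far were picked from the 28 pairs of the 8 genes, and other pairs were negative within groups. Among these were Abcg8 with Npc2 (r = -0.664), Abcg5 with Npc2 (-0.607), Nr1h3 with Npc1 (-0.530) and Nr1h3 with Abcg5 (-0.398). Npc1 exons share 511 bases with Rmc1 on the opposite strand (4.52% of Npc1 exonic bases), and reads there cannot be assigned with certainty.

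Over the 8 genes, 6 did not overlap and were higher on Western diet in DKO/hA1 livers (Nr1h3, Abcg1, Abcg5, Mylip, Npc1 and Npc2), where 15.6% of all genes were higher without overlap. In DKO livers 4 did so (Abcg1, Abcg5, Abcg8 and Npc2), against 10.5% of all genes. Over all 6 Western diet against all 6 chow livers the count was 2, against 2.51%. Nr1h2 was the gene that did not separate in either genotype. The clock index, which contrasts clock genes of opposite daily phase, was -3.53 to -1.31 in DKO/hA1 livers on Western diet, against -0.62 and 0.26 in DKO/hA1 livers on chow. Those ranges did not overlap. In DKO livers it was -2.55 to -1.28 on Western diet, against -4.04, -4.03, 0.55 and -0.02 on chow. The DKO chow livers at about -4 were replicates 1 and 2, which had the highest Npc1 of their group (36.1 and 26.9 FPKM). The part of the clock phase in these values was not tested beyond the fit with the index as covariate, and the time of tissue collection is not given in the sources used here. With the index as a covariate the Abcg1 diet difference in DKO/hA1 livers was 1.64 (limma adjusted p = 0.0692).

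**Figure D4:**
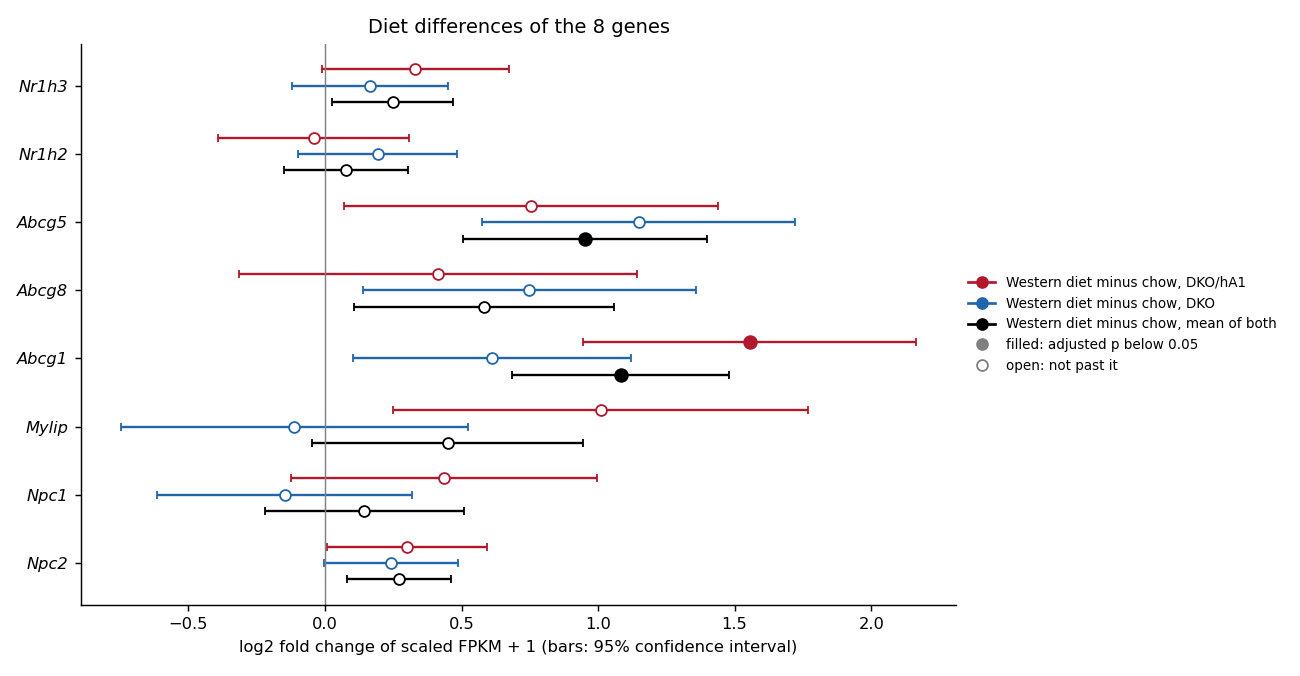
Log2 fold change of scaled FPKM plus 1, Western diet minus chow (x axis), of the 8 genes (y axis) in DKO/hA1 livers (red), DKO livers (blue) and averaged over both (black), with bars for 95% confidence intervals and filled points for adjusted p below 0.05. Filled points stand at Abcg1 (1.56 in DKO/hA1, 1.08 averaged) and Abcg5 (0.95 averaged), and the intervals of Nr1h2 all include 0.

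The human APOA1 gene made no called difference to any of the 8 genes on either diet. On Western diet 0 of the 11546 genes were called by limma (0%), and 687 had an unadjusted p below 0.05. Of the 8, 1 was higher at an unadjusted p below 0.05, against 3.43% of all genes. This was Abcg1, with 6.38, 8.13 and 5.81 FPKM in DKO/hA1 livers, against 5.74, 3.51 and 3.28 FPKM in DKO livers. All 3 DKO/hA1 values were above the DKO values, as for 4.38% of all genes, by a log2 fold change of 0.62 ± 0.25 (95% interval 0.07 to 1.16, limma adjusted p = 0.813). The macrophage marker sums, 1086 to 1876 FPKM in DKO/hA1 livers and 784 to 993 in DKO livers on Western diet, did not overlap either. Mylip differed by 0.60 ± 0.31 (95% interval -0.08 to 1.28, limma adjusted p = 0.882), or 0.35 without DKO Western diet replicate 3. Abcg5 differed by -0.27 ± 0.28 (limma adjusted p = 0.968), with a sign that turned on leaving out single livers, and Nr1h3 by 0.06 ± 0.14 (limma adjusted p = 0.996).

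On chow 0.0779% of all genes were called for the human gene and none of the 8 by limma, with 1 of the 8 lower at an unadjusted p below 0.05, against 3.8% of all genes. That gene was Npc1, at 17.9 and 17.3 FPKM in DKO/hA1 livers against 36.1, 26.9, 19.6 and 21.3 FPKM in DKO livers. Both DKO/hA1 values were below all DKO values, as for 9.28% of all genes, by a log2 fold change of -0.53 ± 0.24 (95% interval -1.07 to -0.00, limma adjusted p = 0.662), or -0.25 with the clock index as covariate. Npc2 had higher values in both DKO/hA1 livers, 27.2 and 22.2 FPKM, than in the DKO livers, 20.8 to 22.1 FPKM, as for 12.3% of all genes, with a log2 fold change of 0.16 ± 0.13 (limma adjusted p = 0.843). Averaged over diets, 0 of the 8 genes were called by limma and 0 had an unadjusted p below 0.05, against 0.0866% and 8.23% of all genes. The diet comparisons share their groups with those for the human gene, so their values are not independent.

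Other LXR target genes gave a mixed picture on Western diet. In the averaged diet comparison 2 of the 17 listed were called higher, Cd5l and Pltp, against 2.8% of all genes tested. None was called lower, 14 values were positive, and the median log2 fold change was 0.47. Cd5l encodes a secreted protein of macrophages. It averaged 502 ± 49.4 FPKM in DKO/hA1 Western diet livers, against 92.1 ± 69.8 in DKO/hA1 chow livers, and 292 ± 71.8 FPKM in DKO Western diet livers, against 144 ± 49.8 in DKO chow livers. Its averaged diet difference was 1.83 ± 0.30 (limma adjusted p = 0.00906). Pltp, which encodes phospholipid transfer protein of plasma, averaged 117 ± 19.8 FPKM in DKO/hA1 Western diet livers, against 30.2 ± 13.2 in DKO/hA1 chow livers. In DKO livers Pltp averaged 67.0 ± 14.2 FPKM on Western diet, against 24.2 ± 9.33 on chow, and the averaged difference was 1.70 ± 0.25 (limma adjusted p = 0.00702). Both genes were also called in DKO/hA1 livers alone, Cd5l by 2.65 ± 0.46 (limma adjusted p = 0.0267) and Pltp by 1.95 ± 0.38 (limma adjusted p = 0.0364). In that comparison 1.08% of all genes tested were called higher. In DKO livers 0 of the 17 were called by limma, with a median of 0.25. There 7 of the 17 were higher at an unadjusted p below 0.05, against 7.1% of all genes.

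**Figure D5:**
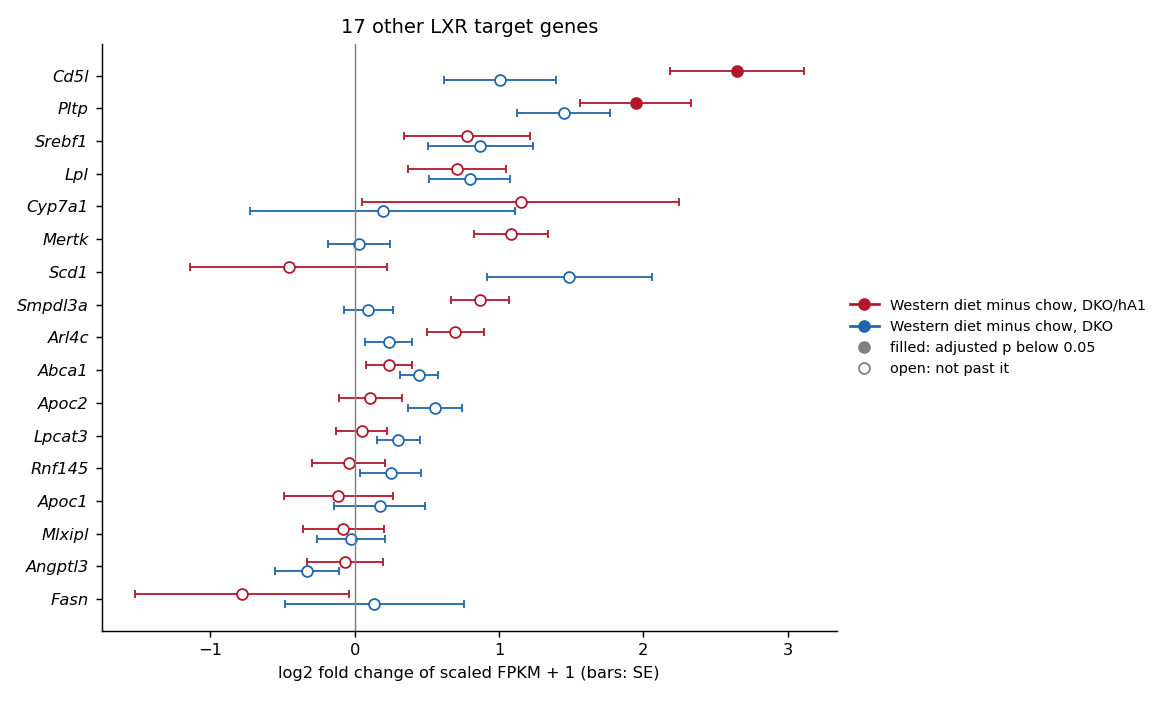
Log2 fold change of scaled FPKM plus 1, Western diet minus chow (x axis, bars for SE), of 17 other LXR target genes (y axis) in DKO/hA1 livers (red) and DKO livers (blue), with filled points for adjusted p below 0.05. Cd5l and Pltp are filled in DKO/hA1 livers (2.65 and 1.95), and no gene is filled in DKO livers.

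Abca1, the exporter that loads apolipoprotein A-I with cholesterol and a classic LXR target, was not called. It averaged 33.3 ± 6.16 FPKM in DKO/hA1 Western diet livers, against 27.6 ± 5.16 in DKO/hA1 chow livers, with a log2 fold change of 0.24 ± 0.16 (limma adjusted p = 0.586). In DKO livers it averaged 29.8 ± 2.42 FPKM on Western diet, against 20.5 ± 1.22 on chow, a difference of 0.44 ± 0.13 (limma adjusted p = 0.249). Of 7 tested ABC exporters of sterol, phospholipid and bile salts outside the 8 genes, Abca1 included, none was called for diet in DKO/hA1, in DKO or on average by limma. At an unadjusted p below 0.05, 2 were lower in DKO/hA1, and 1 was higher in DKO, against 7.1% of all genes. On average 1 was higher and 1 lower at that threshold. None of 16 RXR partners and LXR co-regulators was called by limma in these comparisons, with 0, 0 and 1 at an unadjusted p below 0.05. None of 6 tested oxysterol and desmosterol enzymes was called, with 0 at an unadjusted p below 0.05 in each. Shares of all genes for the other unadjusted counts of these lists are not given here, so those counts are descriptions only.

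Genes around the lysosomal pair and the cholesterol-sensing pathway moved in different directions. Among 19 tested genes of lysosomal and intracellular sterol transfer, Soat1 was called higher and Stard4 and Osbp lower in the averaged diet comparison. Of all 11546 genes tested, 463 were called in either direction in that comparison. Soat1, which esterifies cholesterol for storage, averaged 3.60 ± 0.657 FPKM in DKO/hA1 Western diet livers, against 0.912 ± 0.504 in DKO/hA1 chow livers. In DKO livers it averaged 2.32 ± 0.529 FPKM on Western diet, against 1.20 ± 0.0995 on chow. Its averaged difference was 0.90 ± 0.12 (limma adjusted p = 0.00514). Soat1 was also called in DKO/hA1 livers alone, by 1.27 ± 0.19 (limma adjusted p = 0.0134). The part of macrophage number in the Soat1 difference was not tested. Soat2, of the same list, was not called for diet and had lower means on Western diet. It averaged 12.3 FPKM in DKO/hA1 Western diet livers, against 20.0 in DKO/hA1 chow livers, without overlap. In DKO livers Soat2 averaged 15.3 FPKM on Western diet, against 16.5 on chow, and these groups overlapped. Stard4, a cytosolic sterol carrier that is a target of SREBP2, averaged 13.0 ± 3.08 FPKM in DKO/hA1 Western diet livers, against 26.6 ± 6.09 in DKO/hA1 chow livers. In DKO livers Stard4 averaged 12.1 ± 3.25 FPKM on Western diet, against 27.2 ± 6.63 on chow, and its averaged difference was -1.09 ± 0.19 (limma adjusted p = 0.0104). Osbp, an oxysterol-binding sterol carrier, averaged 13.5 ± 1.74 FPKM in DKO/hA1 Western diet livers, against 19.6 ± 0.675 in DKO/hA1 chow livers. In DKO livers Osbp averaged 14.3 ± 1.29 FPKM on Western diet, against 15.2 ± 1.13 on chow, and these groups overlapped. Its averaged diet difference was -0.34 ± 0.08 (limma adjusted p = 0.0447), made up of -0.53 ± 0.13 in DKO/hA1 (limma adjusted p = 0.0713) and -0.15 ± 0.11 in DKO (limma adjusted p = 0.616).

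The 8 listed genes of the SREBP2 pathway, which raises cholesterol synthesis and uptake when cell cholesterol is low, all had negative diet differences in each genotype. In DKO/hA1 livers 2 were called lower, Hmgcs1 by -3.06 ± 0.58 (limma adjusted p = 0.0357) and Idi1 by -3.35 ± 0.69 (limma adjusted p = 0.0474), with a median of -1.36 over the 8. Of all 11546 genes tested, 166 were called there in either direction. In DKO livers 0 of the 8 were called by limma, against 0.113% of all genes, with a median of -0.71. Of the 8, 3 were lower there at an unadjusted p below 0.05. The share of all genes lower at that threshold is not given here, so this count is a description only. Hmgcs1 and Idi1 encode enzymes of cholesterol synthesis. Averaged over genotypes Scap, the escort protein of SREBP2, was also called lower, by -0.50 ± 0.11 (limma adjusted p = 0.0328). No gene of these pathway lists was called for the human gene on either diet or for the interaction by limma.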

How the data were processed

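The authors aligned reads to mouse build mm10, and the tools named are TopHat 1.3.2, Bowtie 0.12.8, SAMtools 0.1.19 and Cuffdiff, per the submitters' processing notes. The annotation and strand setting are not given in the sources used here. Per the labels' protocols, RNA of an integrity number under 7 was not sequenced. Although its name says counts, the deposited values are FPKM (fragments scaled for transcript length and for mapped fragments), so no count test was used. Read numbers are not used here, so the depth is unknown in reads and no counting interval is given. Relative depth was estimated from the steps between low FPKM values, with DKO chow replicate 1 set to 1. It was 0.525 in DKO chow replicate 2, 0.547 in DKO Western diet replicate 3 and 0.785 to 1.29 in the others. The part of depth in the values was not tested.

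The 8 genes and all gene lists were chosen with earlier results of these data known. Left out were 785 small RNA genes and 21 genes listed at 0 throughout a group but at 1 FPKM or more in every library of another (among them Alb and Trf). The filter asked for 1 FPKM or more in 2 or more libraries, which left 11546 genes. Scaling used a trimmed mean of log ratios without weights (trims 0.3 and 0.05, factors 0.9219 to 1.038), and 1 was added before the log2. The fit used limma 3.58.1 in R 4.3.3 with 4 group means over 12 libraries and a trended, robust variance, with two-sided p-values. It was tested on simulated data. Named were all 8 genes, and for 4 of them the 5 genes most like them. Of each pathway list, but not of the cell type markers, the called genes were named, up to 4 per list and comparison by size. Abca1, Soat2 and Cd163 were named outside this rule. Figures used Python 3.11.15, pandas 2.3.3, numpy 2.4.6 and matplotlib 3.10.9. Coordinates are from GENCODE M21, and sequences from RefSeq. Alternatives covered the added value, filter, scaling, libraries fitted, variance, replicate number, animal code, clock index, neutrophil-high libraries and each library left out.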

Additional observations from a re-analysis of the deposited data

Results flagged for a closer look

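Mylip stood out because its difference for the human APOA1 gene ran in opposite directions on the diets in every DKO/hA1 liver. Each DKO/hA1 liver on Western diet (7.38, 9.34 and 6.70 FPKM) was above the mean of DKO livers on Western diet (5.10 ± 2.40 FPKM, SD). Each DKO/hA1 liver on chow (4.97 and 2.09 FPKM) was below the mean of DKO livers on chow (5.17 ± 1.46 FPKM, SD). The interaction was 1.12 ± 0.45 on the log2 scale (SE, limma adjusted p = 0.96, unadjusted p = 0.03), so it did not pass the test across all genes. Without DKO/hA1 chow replicate 2 the difference on chow was -0.0521 instead of -0.52, and the interaction was 0.65, so the opposite direction on chow rests largely on that liver. The fitted differences of 5 other genes of the 8 also had opposite signs on the diets (Abcg1, Nr1h3, Abcg5, Abcg8 and Npc1).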

How the results depend on the processing

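Most member values kept their direction and call across 22 or 23 other settings. In DKO/hA1 livers the count of the 8 genes called for diet was 0 instead of 1 in 5 settings (0 to 1 on leaving out single libraries). The Abcg1 difference and the calls among all genes tested, 166 in the report, were then 1.51 and 69 with equal totals, 1.56 and 13 with only the groups compared, 1.54 and 19 with the animal code as a random block, 1.64 and 53 with the clock index, and 1.65 and 56 without the 2 neutrophil-high libraries. In DKO livers it was 0 to 1 on leaving out single libraries. In the averaged diet comparison it was 1 with equal totals (421 of all genes, against 463 in the report), 0 with the animal code (67), 1 with the clock index (400), and 0 to 3 on leaving out single libraries. The meaning of the animal code, whose first number is shared by some libraries, is not given in the labels, and the cause of these losses was not tested. Equal totals moved the median of all genes by -0.19 for diet in DKO and by 0.16 for the human gene on Western diet.

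Same-numbered samples of different groups share only a number, apart from replicates 1 on Western diet, which also share an animal code (r = 0.44). Correlations of the deviations of same-numbered samples ran from -0.28 to 0.45. DKO/hA1 chow replicates 1 and 2, which share a code with DKO chow replicate 3, had r = 0.071 and -0.071 with it. Deviations in a group of 2 livers are mirror images, so these values have opposite signs by construction. DKO/hA1 Western diet replicate 3 and DKO Western diet replicate 2, which share neither number nor code, had r = 0.549. These were the 2 livers highest in neutrophil markers (sums of 832 and 901 FPKM), and the part of this in the correlation was not tested. With the replicate block the Abcg1 diet difference in DKO/hA1 livers was 1.59 (limma adjusted p = 0.0366) and the count of genes called there among all tested was 100 instead of 166. The block changed no call among the 8 genes.

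Values that were not called changed sign as follows. With equal totals Nr1h2 was at -0.0177 for diet in DKO, at 0.0563 for the human gene on chow and at -0.0671 for averaged diet, and Nr1h3 was at -0.0549 for diet in DKO. Without scaling Nr1h2 was at 0.011 for the human gene on chow. With the replicate block, for the human gene on chow, Nr1h2 was at 0.0941, Nr1h3 at 0.00011, Abcg5 at -0.11 and Abcg8 at -0.12. For diet in DKO/hA1, Nr1h2 was at 0.0062 with the animal code and 0.10 with the clock index. With the clock index Npc1 was at -0.0701 for the human gene on Western diet and at -0.0839 for averaged diet. Without the neutrophil-high libraries the Npc2 interaction was -0.0387.

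On leaving out single libraries the ranges that crossed 0 were as follows. For diet in DKO/hA1, Nr1h2 ran from -0.0992 to 0.0272. For diet in DKO, Mylip ran from -0.40 to 0.14 and Npc1 from -0.28 to 0.0103. For the human gene on Western diet, Nr1h3 ran from -0.0308 to 0.15, Abcg5 from -0.48 to 0.0075, Abcg8 from -0.46 to 0.082 and Npc1 from -0.0911 to 0.22. On chow, Nr1h2 ran from -0.12 to 0.0332, Abcg1 from -0.74 to 0.0892 and Abcg8 from -0.0507 to 0.19. For the interaction, Abcg8 ran from -0.53 to 0.0146 and Npc2 from -0.0673 to 0.18.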
